A study of Mus musculus with 20 samples.

Results

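Imprinted genes are expressed mainly from the chromosome of a single parent. A set of 10 was followed here in sensory neurons of the dorsal root ganglion (DRG) of adult mice: H19, Igf2, Dlk1, Meg3, Rian, Mirg, Peg3, Plagl1, Cdkn1c and Snrpn. These are 10 of the 37620 genes listed, and they were looked up by Ensembl identifier. The genes were chosen by their measured difference between lumbar and sacral libraries, so their values between the levels are given as a description and not as a test. The contrast between females and males played no part in the choice and was tested.

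The libraries came from mice homozygous for the Trpv1tm2Bbm allele, in which the Trpv1 locus also produces placental alkaline phosphatase and a nuclear beta-galactosidase. All mice were 6 to 8 weeks old and carried the same allele, so no group without the reporter was compared. Ganglia were dissociated, cells that cleaved a fluorescent galactosidase substrate were isolated by flow cytometry, and only the brightest were kept for RNA. There were 4 groups of 5 libraries, namely lumbar (L4_L5) and sacral (L6_S1) DRG of males and lumbar and sacral DRG of females. Donors are called M1 to M5 and F1 to F5, and each gave 1 lumbar and 1 sacral library. The labels name 2 animal numbers for each donor, whereas the study's methods speak of 5 mice of each sex, so whether a donor is 1 animal or a pool is open.

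The libraries held between 43906566 and 66407317 reads on genes, worked back from the deposited values. Neuron markers were high in every library, and those defining Trpv1 neurons were present (Trpv1 at log2 RPKM 3.74 ± 0.41 in lumbar and 4.70 ± 0.35 in sacral libraries, Calca at 9.98 ± 0.23 and 9.82 ± 0.25, SD, n = 10). RPKM is the number of reads scaled to transcript length in kilobases and to library size, here on a log2 scale. Markers of cells other than neurons were present too, and most were higher in lumbar libraries. Satellite glia markers were called higher in lumbar libraries for 8 of 8 genes, with a summed level of 1210 to 2780 RPKM in lumbar and 616 to 1280 RPKM in sacral libraries. Of 10 fibroblast markers 7 were called higher in lumbar libraries and none in sacral, while their sum, to which Dcn adds most, overlapped (76.7 to 348 RPKM against 90.8 to 184 RPKM). Of 10 neuron markers 9 were called higher in sacral libraries, with sums of 2770 to 3540 RPKM there and 2040 to 3200 RPKM in lumbar libraries. Over all 16304 genes tested 15.3% were called higher in lumbar and 30.3% higher in sacral libraries, shares that moved with the scaling. No marker of these 3 lists was without reads, apart from the fibroblast gene Dpt, which was empty in 1 library. In bulk samples of this kind, fewer cells of a type and less RNA per cell cannot be told apart.

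In an imprinted cluster, several genes share a control region whose methylation differs between the maternal and the paternal chromosome. H19, a long noncoding RNA, and Igf2, a secreted growth factor, are neighbours with reciprocal imprinting, H19 being maternally and Igf2 paternally expressed in most tissues of the fetus, and both are largely silenced after birth outside a few tissues such as the leptomeninges. The Dlk1-Dio3 cluster makes the protein Dlk1, a transmembrane relative of the Notch ligands, from the paternal chromosome, and the noncoding RNAs Meg3, Rian and Mirg, which host microRNAs and small nucleolar RNAs (snoRNAs), from the maternal one. Peg3 and Plagl1 are paternally expressed zinc finger proteins, Cdkn1c is a maternally expressed inhibitor of the cell cycle, and Snrpn, expressed paternally, encodes a protein of the splicing machinery that is abundant in neurons. These libraries carry no information on the parental allele.

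On the mm9 genome used for the deposited values, H19 (ENSMUSG00000000031) lies at chr7:149761434-149764048 and Igf2 (ENSMUSG00000048583) at chr7:149836673-149852721, both on the minus strand. Cdkn1c (ENSMUSG00000037664) lies further along at chr7:150644255-150646955, Peg3 (ENSMUSG00000002265) at chr7:6656603-6683132 and Snrpn (ENSMUSG00000000948) at chr7:67127388-67285105, all on the minus strand. Plagl1 (ENSMUSG00000019817) is at chr10:12810497-12851500 on the plus strand. On the plus strand of chromosome 12 follow Dlk1 (ENSMUSG00000040856) at chr12:110691033-110701546, Meg3 (ENSMUSG00000021268) at chr12:110779211-110809936, Rian (ENSMUSG00000091793) at chr12:110842155-110899919 and Mirg (ENSMUSG00000091158) at chr12:110973191-110987665. Each value covers the annotated exons of the whole gene.

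H19 and Meg3 host microRNAs in their exons, and the mature sequences (RefSeq, GRCm38.p6) are shown because the reads listed for these hairpins are described below with the transcripts. Capitals mark the seed, bases 2 to 8, which pairs with targets. The hairpin of miR-675 lies in an exon of H19, those of miR-1906 and miR-770 lie in exons of Meg3, that of miR-1188 lies in an intron of Rian, and that of miR-544 lies between Rian and Mirg.
miR-675-5p: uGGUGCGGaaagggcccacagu
miR-675-3p: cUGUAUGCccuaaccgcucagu
miR-1906: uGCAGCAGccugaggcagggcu
miR-770-5p: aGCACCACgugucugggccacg
miR-770-3p: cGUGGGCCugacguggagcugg
miR-1188-5p: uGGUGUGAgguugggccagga
miR-544-3p: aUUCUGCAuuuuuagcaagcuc
None of those shown share a seed. Among the 93 mature sequences matched to 50 of the 59 hairpin rows of both regions there were 88 different seeds, and 5 seeds were shared by a pair each, such as AGGUCAC in miR-370-5p and miR-1193-3p.

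Windows of 250 bases before a RefSeq start were found for 8 of the 10 genes, 15 windows in all. They were searched on both strands for TGACGTCA, the cAMP response element, and for TATAAA, the TATA box, motifs picked after the sequences had been read. TGACGTCA was present in 2 windows, those of Meg3 and Peg3, against 1.55% of all 32851 promoter windows. The windows are shown because the genes carry the same 8 letters and differed in opposite directions between the levels. Capitals mark TGACGTCA in both, and in Meg3 also TATAAA with its overlapping reverse complement TTTATA. The TATA box letters occurred in 12.4% of all windows, and also in 1 of the windows of Snrpn. A match is a description of the letters and not of a bound site.
Meg3, chr12:109540746-109540995 (GRCm38.p6, plus strand): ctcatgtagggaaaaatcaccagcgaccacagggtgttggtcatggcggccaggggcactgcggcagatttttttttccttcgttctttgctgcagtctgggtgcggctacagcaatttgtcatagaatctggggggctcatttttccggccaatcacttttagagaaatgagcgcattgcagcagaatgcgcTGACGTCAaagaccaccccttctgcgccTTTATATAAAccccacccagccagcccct
Peg3, chr7:6730420-6730669 (GRCm38.p6, minus strand): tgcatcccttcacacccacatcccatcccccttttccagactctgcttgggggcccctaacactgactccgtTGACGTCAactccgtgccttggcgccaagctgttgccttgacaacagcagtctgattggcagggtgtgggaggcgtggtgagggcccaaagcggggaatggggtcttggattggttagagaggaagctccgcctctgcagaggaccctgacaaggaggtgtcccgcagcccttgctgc

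The order of the members by level per length was led by Snrpn, which was the highest of the 10 in all 20 libraries at log2 RPKM 7.32 ± 0.37 (SD, n = 20). Peg3 followed at 5.64 ± 0.51, then Meg3 at 4.49 ± 1.05 and Rian at 4.11 ± 0.49, and over the 20 libraries Meg3 and Rian overlapped. The order differed between the levels, since Meg3 had median place 2 and Peg3 3 in lumbar libraries, while in sacral libraries Peg3 had place 2, Rian 3 and Meg3 4. Igf2 (2.98 ± 2.06), Plagl1 (2.37 ± 0.58) and H19 (1.57 ± 2.25) overlapped likewise, and Mirg came next at 0.27 ± 1.24. Cdkn1c, measured in 19 libraries, averaged -0.89 ± 1.58. Dlk1 had a value in 10 libraries, at most 23 reads in any of them, and was too low to be tested. H19 was below Igf2 in all 20 libraries, by 0.48 to 2.63 on the log2 scale.

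Of the 9 members tested, 8 were called between lumbar and sacral libraries (limma, Benjamini-Hochberg adjusted p of at most 0.05), 5 higher in lumbar and 3 higher in sacral libraries. Over all 16304 genes tested 45.6% were called, 15.3% as higher in lumbar and 30.3% as higher in sacral libraries, and nothing is read from the members' count because this contrast chose them. The median difference was 0.64 for the 9 members and -0.11 for all genes tested, on the log2 scale. For none of the 9 were the lumbar and sacral values fully separate, which was so for 1.71% of the genes tested that had 20 values. The plot of members by library shows both the pairs and the overlap.

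**Figure D1:**
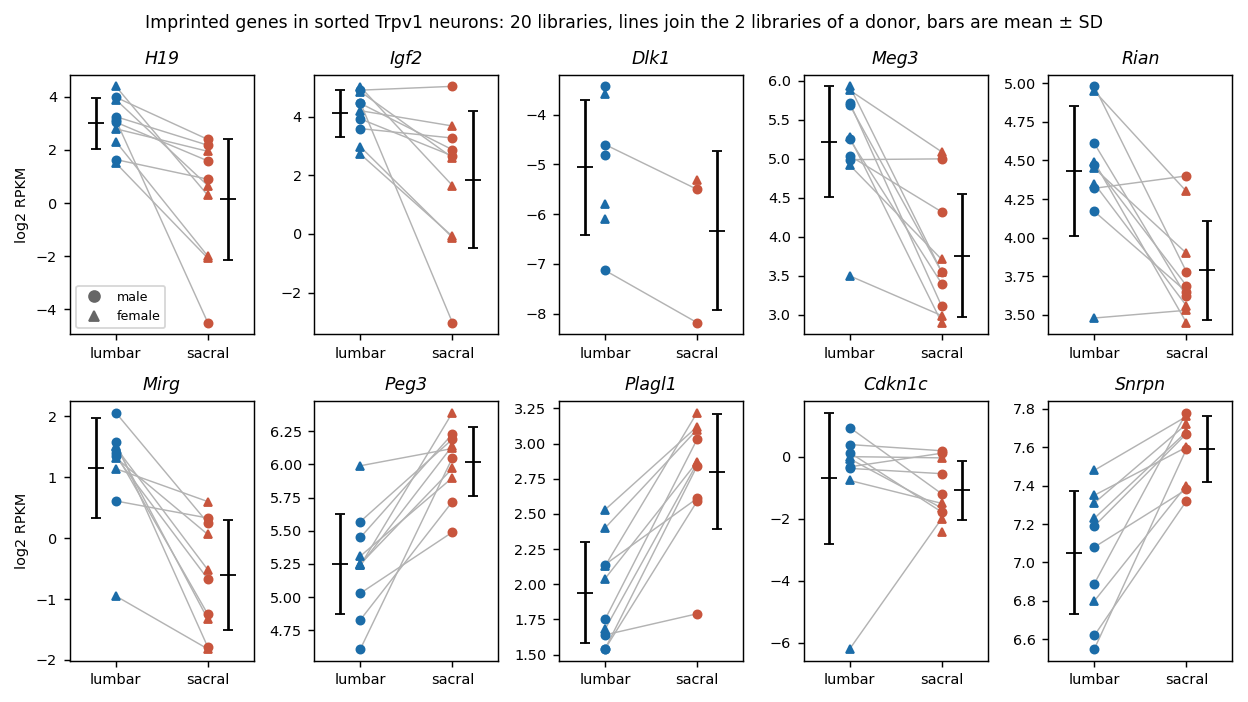
Log2 RPKM of the 10 imprinted genes in each of the 20 libraries, lumbar at the left and sacral at the right of each panel, circles for males and triangles for females, lines joining the libraries of a donor, bars for the mean ± SD of each level. H19, Igf2, Meg3, Rian and Mirg were mostly higher in lumbar libraries, Peg3, Plagl1 and Snrpn were higher in sacral libraries of all 10 donors, and Dlk1 had a value in 10 libraries only.

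H19 had the widest difference of the members. In lumbar libraries it ranged from 1.51 through a median of 3.09 to 4.40 log2 RPKM, on 279 to 2362 reads. In sacral libraries it ranged from -4.51 through 0.78 to 2.40, on 6 to 687 reads. All 10 donors had more H19 in the lumbar library, by 0.74 to 7.66 on the log2 scale, and 7 lumbar libraries lay above the highest sacral one. The fitted lumbar minus sacral difference was 2.86 with a standard error (SE) of 0.65. The sacral libraries of M2, F2 and F5 stood apart at -4.51, -2.08 and -2.0. Without donor M2 the difference was 2.22.

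Igf2 followed H19 library by library. Its lumbar values ran from 2.72 through 4.32 to 5.01 and its sacral values from -3.02 through 2.63 to 5.03, on 39 to 8887 sacral reads. The same 3 sacral libraries were lowest, M2 at -3.02, F5 at -0.12 and F2 at -0.08. Igf2 was higher in the lumbar library of 9 donors, and in M3 it was slightly lower, by 0.13. The fitted difference was 2.25 (SE 0.65), and 1.58 without M2. H19 and Igf2 correlated at r = 0.97 over the 20 libraries and at 0.96 after the mean of each of the 4 groups was removed. The gap between the neighbours was wider in sacral libraries, H19 minus Igf2 being -1.11 ± 0.43 in lumbar and -1.72 ± 0.61 in sacral libraries (SD, n = 10), with 8 donors higher in lumbar.

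The hairpin of miR-675 in the H19 exon is a row of its own, with 168 reads in lumbar and 41 in sacral libraries. It had reads in all 10 lumbar libraries, at most 40, and in 6 sacral libraries, at most 12. Its reads came to 1.65% of those of H19 in lumbar and 1.46% in sacral libraries. The libraries were not made from small RNA, so these reads cannot be told apart from reads of the H19 transcript, and how reads over both rows were counted is not given in the sources used here. The antisense gene Igf2as overlaps Igf2 and held 31 lumbar and 41 sacral reads. With no strand stated for the counting, reads of the antisense and sense genes cannot be told apart, but the Igf2as row was small beside the 47092 lumbar and 22907 sacral reads of Igf2.

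Meg3 ranged from 3.50 through 5.26 to 5.93 log2 RPKM in lumbar and from 2.90 through 3.55 to 5.09 in sacral libraries. It was higher in the lumbar library of 9 donors, and in M1 both libraries were nearly equal at 4.99 and 5.0. The fitted difference was 1.46 (SE 0.28). The lowest lumbar library was that of F2, which was within the sacral range. Mirg, the microRNA host at the far end of the cluster, was higher in the lumbar library of all 10 donors, with values of -0.95 to 2.06 in lumbar and -1.82 to 0.60 in sacral libraries and a difference of 1.77 (SE 0.33). Its depth was low, at 45 to 580 reads per library.

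Rian, the host of many snoRNAs, differed by less than its neighbours. It ranged from 3.48 to 4.98 in lumbar and from 3.45 to 4.40 in sacral libraries, was higher in the lumbar library of 8 donors, and had a difference of 0.64 (SE 0.14). Meg3, Rian and Mirg thus did not keep a fixed ratio. Meg3 exceeded Rian by 0.79 ± 0.38 in lumbar libraries and was level with it, at -0.03 ± 0.54, in sacral libraries, with all 10 donors higher in lumbar. Rian exceeded Mirg by 3.28 ± 0.54 in lumbar and by 4.40 ± 0.78 in sacral libraries. Meg3 and Rian correlated at 0.93 over the 20 libraries, and Meg3 and Mirg at 0.87.

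Dlk1 was close to the limit of detection. Of 10 lumbar libraries 7 held a value, with 71 reads in all, and of 10 sacral libraries 3 held a value, with 18 reads in all. Only M1 and M4 had a value at both levels, and in both it was the lumbar one that was higher, by 1.05 and 0.90. These steps rest on 2 lumbar reads against 1 sacral in M1 and 11 against 8 in M4, so no direction is read from them. In F3 the lumbar library was empty and the sacral one held 9 reads.

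Other rows between Dlk1 and Dio3 are mostly hairpins and snoRNAs, and many lie inside the transcripts of Meg3, Rian and Mirg, so they are no independent readout of the members. Of 57 microRNA rows 52 had reads, 37 with more in lumbar and 13 with more in sacral libraries, 2713 lumbar and 1307 sacral reads in total. All 23 snoRNA rows had reads, 21 with more in lumbar libraries, 7352 against 3489 reads. Of the rows that passed the filter on low values, 9 of 23 microRNA rows and 9 of 18 snoRNA rows were called higher in lumbar libraries. None was called higher in sacral libraries, and over all genes tested the shares were 15.3% and 30.3%. Nothing is read from these counts, because many rows lie inside members that this contrast chose. Some calls rest on few reads, such as that of the miR-493 row on 29 lumbar and 3 sacral reads. Of the microRNA and snoRNA rows tested, 4 had a difference below 0, none of them called. They were AC121784.5 inside Mirg at -0.92 (SE 0.56), the miR-770 row inside a Meg3 exon, a SNORD113 row at -0.20 and AC121784.2 at -0.17. The miR-770 row had 125 lumbar and 171 sacral reads, more in the sacral library of 9 donors when reads were compared without scaling. On the scaled values its difference was -0.23 (SE 0.32) and did not pass the test (limma, adjusted p = 0.572). The miR-1906 row in another Meg3 exon had 685 lumbar and 284 sacral reads. The miR-1188 row held 226 and 108 reads, and the miR-544 row 436 and 147 reads. The lincRNA Gm17639 runs antisense across the last part of Meg3, and its values followed Meg3 at r = 0.98. With no strand stated for the counting, its reads cannot be told apart from those of Meg3. These rows are plotted by their order along the region.

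**Figure D2:**
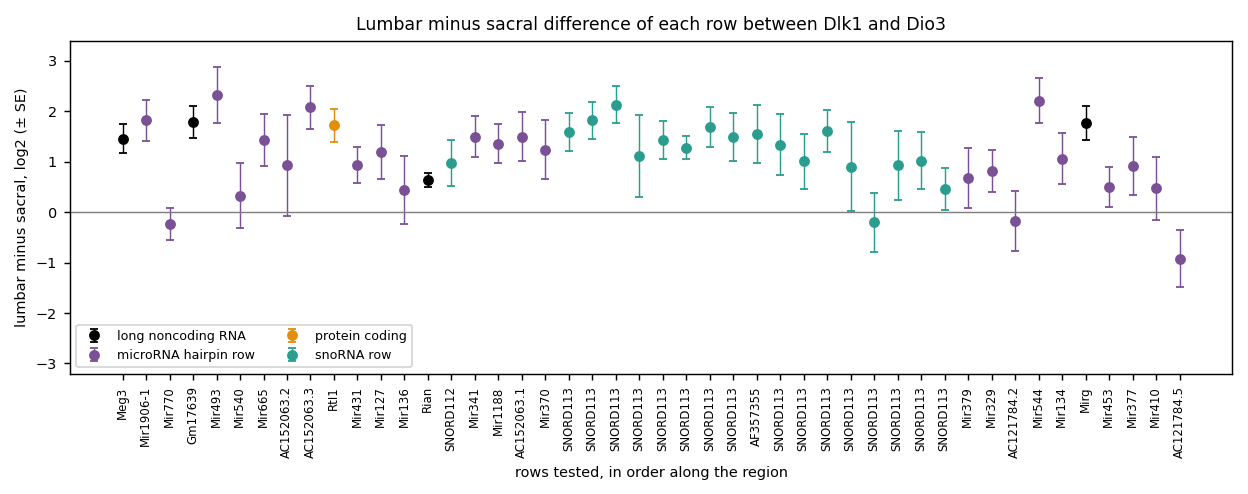
Lumbar minus sacral difference, log2 ± SE, of every row between Dlk1 and Dio3 that was tested, in order along the region, black for long noncoding RNAs, purple for microRNA hairpins, green for snoRNAs and orange for the protein coding Rtl1. Most points lie above 0, Rian at 0.64 lies below Meg3 at 1.46 and Mirg at 1.77, and 4 rows lie below 0, among them AC121784.5 at -0.92 and the miR-770 row at -0.23.

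Peg3 was lower in the lumbar library of all 10 donors, by 0.13 to 1.44 on the log2 scale. Lumbar values ran from 4.61 through 5.25 to 5.99 and sacral values from 5.49 through 6.09 to 6.39, and 6 sacral libraries lay above the highest lumbar one. The difference was -0.77 (SE 0.12). F2 had the highest lumbar value, 5.99, and the smallest step to its sacral library.

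Plagl1 was likewise lower in all 10 lumbar libraries of the pairs, with a difference of -0.86 (SE 0.13). It ranged from 1.54 through 1.89 to 2.53 in lumbar and from 1.79 through 2.87 to 3.22 in sacral libraries. The sacral library of M2 was the single one that lay within the lumbar range. Peg3 and Plagl1 correlated at 0.89 over the 20 libraries and at 0.68 after group means were removed. Peg3 minus Plagl1 was nearly the same at both levels, 3.31 ± 0.29 in lumbar and 3.22 ± 0.24 in sacral libraries.

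Snrpn had the smallest spread of the members. Lumbar values ran from 6.55 through 7.13 to 7.48 and sacral values from 7.32 through 7.64 to 7.78, and all 10 donors were higher in sacral. The difference was -0.54 (SE 0.09), from 8201 to 32119 reads per library. Measured against the median of all genes, Snrpn was lower in lumbar libraries by 0.43 rather than 0.54.

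Cdkn1c was the tested member not called (0.26, SE 0.56), and its direction depended on the fit. Without F1 its difference was 0.93, and Cdkn1c was then called (limma, adjusted p = 0.029), with the pair of F2 still incomplete. In males alone the difference was 0.80 (limma, adjusted p = 0.14), and in females alone -0.27. It ranged from -6.20 to 0.95 in the 9 lumbar libraries with a value and from -2.43 to 0.20 in sacral libraries. The lowest value, in the lumbar library of F1, rests on 1 read. The lumbar library of F2 was empty and is dropped from the fit, while its sacral library had 21 reads. With the empty cell counted as 0 reads, voom gave -0.21 (TMM scaling) and -0.59 (total reads). Pseudocounts of 1 and 0.1 gave 0.20 and 0.23. Depth was 149 reads at most.

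H19 with Igf2 had been contrasted with Meg3 and Snrpn as a stromal against a neuronal pair. The mean of H19 and Igf2 minus the mean of Meg3 and Snrpn was -2.58 ± 0.70 in lumbar and -4.68 ± 2.12 in sacral libraries. It was higher in lumbar libraries for 9 of 10 donors, by 2.10 ± 2.04 on average, with M2 at 6.78 and M3 at -0.10. Without M2 the mean was 1.58. Meg3 and Snrpn did not behave as a pair. Meg3 minus Snrpn itself was higher in lumbar libraries in all 10 donors, by 2.0 ± 1.1, and Meg3 differed in the direction of H19. This contrast also chose the genes, so it is a description only. After group means were removed Meg3 and Snrpn correlated at -0.36, and the genes are called by name here.

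Correlations with the marker means give the same picture as a description over 20 libraries that share donors, depth and normalization. Snrpn had r = 0.95 with the neuron marker mean and 0.86 after group means were removed. Peg3 had 0.90 and 0.69, and Plagl1 0.87 and 0.65. Meg3 had -0.76 and -0.44 with the same mean. With the fibroblast marker mean Meg3 had 0.72 and 0.53, with the endothelial one 0.75 and 0.63, and with the satellite glia one 0.74 and 0.33. Snrpn had -0.92 and -0.78 with the satellite glia marker mean. H19 had 0.82 and 0.74 with the fibroblast marker mean, and Igf2 0.79 and 0.69. The fibroblast mean was lowest in the sacral libraries of F2 (0.25), M2 (0.57) and F5 (0.58), which were also lowest for H19. It was higher in the lumbar library of all 10 donors, by 0.91 ± 0.57 (SD). With the fibroblast mean as a covariate the H19 difference was 1.01 and the Igf2 difference 0.51, while Peg3 was at -0.86. With the mean of satellite glia and Schwann markers as a covariate Snrpn was at -0.12, Peg3 at -0.38, H19 at 2.34 and Igf2 at 2.38. In that fit 0 members were called, H19 and Igf2 each having an adjusted p of 0.45 (limma). With the fibroblast covariate H19 (0.23), Igf2 (0.59) and Rian (0.093) were not called either. Meg3 at 0.88 (limma adjusted p = 0.049) and Mirg at 1.03 (limma adjusted p = 0.041) were still called higher in lumbar libraries in that fit, and 3 members higher in sacral libraries. Satellite glia, Schwann and fibroblast means were each higher in the lumbar library of 10 of 10 donors, so neither covariate is free of level. The part of other cells in these differences was not tested.

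**Figure D3:**
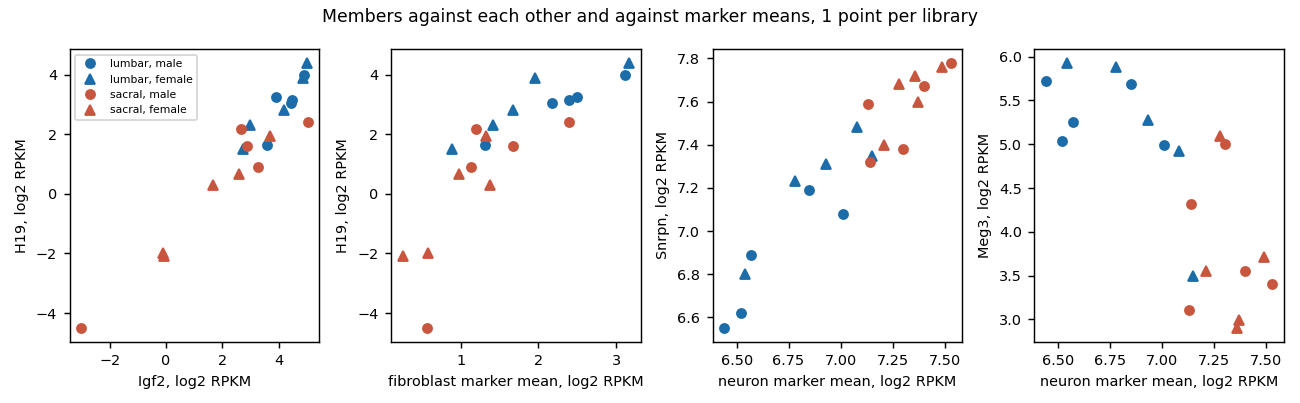
H19 against Igf2, H19 against the mean of 10 fibroblast markers, and Snrpn and Meg3 against the mean of 10 neuron markers, all in log2 RPKM, with 1 point for each of the 20 libraries, blue for lumbar and red for sacral, circles for males and triangles for females. H19 and Igf2 lie on a line (r = 0.97), Snrpn rises with the neuron markers (r = 0.95) and Meg3 falls with them (r = -0.76).

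Among the 15318 genes tested that had a value in all 20 libraries, the 5 whose values were most like H19 were Igf2 (r = 0.97), Sfrp4, a secreted antagonist of Wnt signalling (0.94), Fbln1, a matrix protein on the fibroblast list (0.93), 6330406I15Rik (0.87) and Igfbp6, an IGF binding protein (0.87). Those most like Meg3 were Snhg11 (0.99), Miat (0.98), Gm17639 (0.98), 9530059O14Rik (0.98) and a SNORD113 row inside Rian (0.96). Snhg11 and Miat are long noncoding RNAs encoded elsewhere in the genome, whereas Gm17639 overlaps Meg3 and is no separate readout. For Snhg11 and Miat r stayed at 0.99 and 0.98 after group means were removed. The likeness is a description over 20 libraries.

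No member was called between the sexes. In lumbar libraries 0 of 9 passed the test, against 0.0427% of all genes tested (7 of 16386), and in sacral libraries 0 of 9 against 0.0368% (6 of 16321). At an unadjusted p under 0.05 there were 3 members in lumbar and 1 in sacral libraries. Snrpn had 7.23 ± 0.26 in female and 6.87 ± 0.28 in male lumbar libraries (SD, n = 5), a difference of 0.37 (SE 0.14, limma adjusted p = 0.347). In sacral libraries its difference was 0.08 (SE 0.14). For Plagl1 the differences were 0.44 (SE 0.20, limma adjusted p = 0.419) in lumbar and 0.46 (SE 0.20, limma adjusted p = 0.577) in sacral libraries. The lumbar difference of Cdkn1c was -1.95 (SE 0.90, limma adjusted p = 0.427), and -0.50 without F1. H19 had -0.03 (SE 1.0) in lumbar and -0.75 (SE 1.0) in sacral libraries, and Igf2 -0.31 (SE 1.01) and -0.62 (SE 1.01). The sacral values hung on single donors. Without M2 the sacral difference was -2.0 for H19 and -1.91 for Igf2, without M3 it was -0.28 and 0.1, and over all donors left out in turn these were the lowest and the highest values for both genes, none of them called. With errors of this size a sex difference in H19 or Igf2 was not detectable unless it was large. Meg3 was at -0.23 in both levels (SE 0.43).

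**Figure D4:**
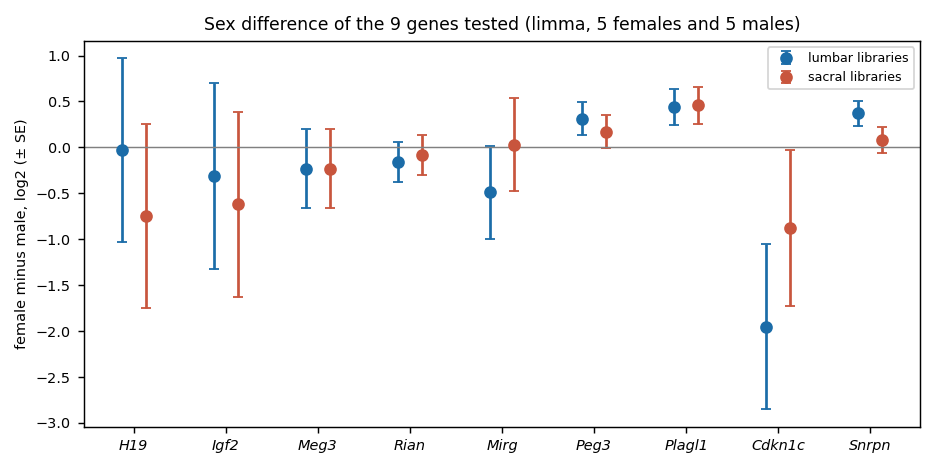
Female minus male difference, log2 ± SE, of the 9 members tested, blue for lumbar and red for sacral libraries, 5 donors of each sex. None passed the test, the errors of H19 and Igf2 are near 1, and the Plagl1 points lie at 0.44 and 0.46.

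The level difference was compared between the sexes by the interaction of sex and level. It was called for 0 of 9 members and for 0.0% of all 16304 genes tested by limma, with 668 genes but no member at an unadjusted p under 0.05. The lowest unadjusted p of a member was that of Snrpn, 0.123, for an interaction of 0.28 (SE 0.18). Fitted in each sex alone, the lumbar minus sacral difference of Snrpn was -0.40 in females and -0.68 in males. H19 averaged 3.01 ± 0.85 in lumbar and 0.51 ± 2.87 in sacral libraries of males, and 2.99 ± 1.17 and -0.24 ± 1.76 in those of females (SD, n = 5), group means that were similar in lumbar and widely spread in sacral libraries.

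Other imprinted genes, taken as a list of 46 textbook genes of which 44 matched the table, differed in both directions between the levels. Of 31 tested, 6 were called higher in lumbar and 12 higher in sacral libraries, 13 were not called, and the median difference was -0.18 against -0.11 for all genes. These shares can be read against the 15.3% and 30.3% of all genes given above. Among the genes called, the largest lumbar differences were those of Rtl1, a retrotransposon-derived gene opposite the miR-127 and miR-136 hairpins (1.72, SE 0.33, adjusted p = 0.00031, limma as throughout), and Phlda2, a growth-restraining gene near Cdkn1c (1.40, SE 0.47, adjusted p = 0.019). Ppp1r9a, which encodes an actin-binding protein of neurons, followed at 0.64 (SE 0.12, higher in 10 of 10 donors), then Cd81, a tetraspanin, at 0.49 (SE 0.08) and Sgce, a sarcoglycan, at 0.34 (SE 0.11). Rtl1 lies on the minus strand between Meg3 and Rian, which are on the plus strand. With no strand stated for the counting, its reads cannot be told apart from those of plus-strand transcripts across it, so it is no separate readout of the cluster. Phlda2 had at most 41 reads in a library and was not called with TMM scaling (0.86, limma adjusted p = 0.27), and scaling by total reads ended the calls of Phlda2, Cd81 (0.16) and Sgce (0.02). Mest, outside the rule for named genes, was called higher in lumbar libraries at 0.32 (SE 0.09). It lost its call with total reads as well (-0.0, limma adjusted p = 0.98).

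Among those called in the sacral direction the largest difference was that of Igf2r, the receptor that takes up and degrades the Igf2 protein (-0.78, SE 0.12, adjusted p = 3.8e-05, 10 of 10 donors). Trappc9, a trafficking protein, was at -0.66 (SE 0.13) and Ndn, a neuronal growth suppressor of the Snrpn cluster, at -0.65 (SE 0.08). H13, a signal peptide peptidase, was at -0.57 (SE 0.08), and Usp29, the neighbour of Peg3, at -0.51 (SE 0.21, adjusted p = 0.048), which was not called with TMM scaling (-0.34, limma adjusted p = 0.19). Ube3a, named for its place in the Snrpn cluster and outside the rule for named genes, was at -0.50 (SE 0.12). Ndn and Ube3a were the only listed genes of that cluster tested, as Magel2, Mkrn3 and Peg12 were too low. Both were called in the sacral direction, as were 30.3% of all genes tested, so no direction of the cluster is read from them. Dcn, a matrix proteoglycan and also a fibroblast marker, was abundant at 6.45 ± 0.65 in lumbar and 6.80 ± 0.39 in sacral libraries and was not called (-0.35, SE 0.19). No gene of the list was called between the sexes.

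Genes of the IGF axis, which carries the signal of Igf2 and its relatives, differed in both directions. Of 23 listed, 15 were tested, 6 were called higher in lumbar and 3 higher in sacral libraries, where 15.3% and 30.3% of all genes tested were called, with a median difference of -0.03. Binding proteins, which hold IGFs outside the cell, made up 5 of the 6 lumbar calls, and of 6 tested only Igfbp2 was not called. Igfbp6 was at 1.89 (SE 0.49), Igfbp4 at 1.20 (SE 0.14, adjusted p = 3.5e-06), Igfbp5 at 1.06 (SE 0.24) and Igfbp7 at 0.94 (SE 0.25). Igfbp3, outside the rule for named genes, was at 0.60 (SE 0.17) and lost its call with scaling by total reads (0.26, limma adjusted p = 0.15). The adaptor Irs1 was higher in lumbar libraries by 0.85 (SE 0.20), whereas the adaptor Irs2 was lower by 0.74 (difference -0.74, SE 0.10, 10 of 10 donors). The receptor of IGF1, Igf1r, was at -0.42 (SE 0.12), in the direction of Igf2r, which stands on both lists. The ligand Igf1 was at 0.60 (SE 0.36, adjusted p = 0.18), and the insulin genes were near absent, with 3 reads at most in any library. No gene of this list was called between the sexes.

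**Figure D5:**
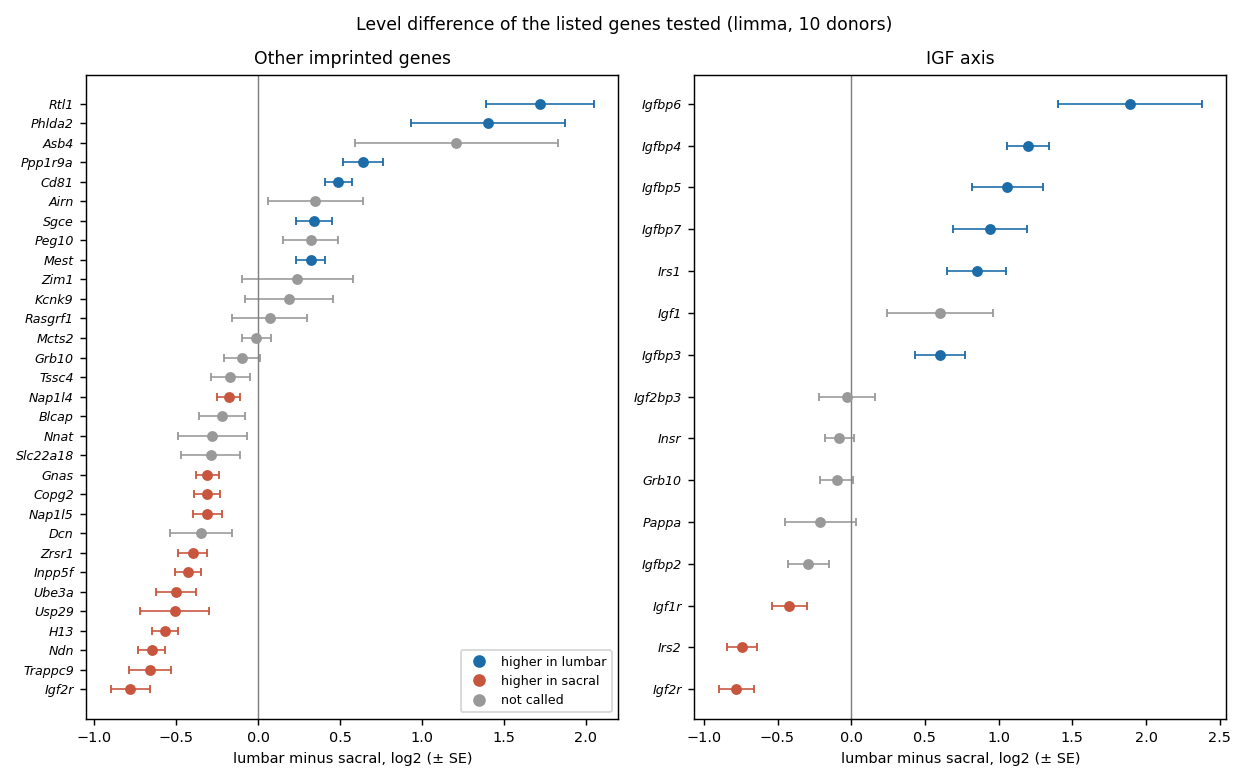
Lumbar minus sacral difference, log2 ± SE over 10 donors, of the 31 other imprinted genes and the 15 IGF axis genes tested, ordered by size, blue where called higher in lumbar, red where called higher in sacral and grey where not called. Rtl1 at 1.72 and Igf2r at -0.78 stand at the ends of the imprinted list, and Igfbp6 at 1.89 and Igf2r at -0.78 at the ends of the IGF list.

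These list counts moved with the markers of other cells. With the glial marker mean as a covariate 0 of 31 other imprinted genes and 1 of 15 IGF axis genes were called, and 192 genes in all. With the fibroblast marker mean they were 12 and 3, and 3953 in all. Satellite glia markers averaged higher in the lumbar library of 10 of 10 donors, so with this covariate glia and level can hardly be told apart. Fibroblast markers did so too, and that covariate is not free of level either. The part of these cells in the differences was not tested.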

How the data were processed

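The values deposited by the authors are log2 RPKM, 1 column per library, with a median of 0.93 in the lumbar library of M1 and 319449 empty cells in all. The authors' reads were aligned to mm9 with Subread, only unique alignments being kept, and counted on Ensembl genes with featureCounts, per the labels and the study's methods. The kit (Ovation, amplified cDNA) is not described as keeping strand. No column was left unused. Of 37620 genes, 37205 matched the NCBIM37 annotation by identifier. Reads were worked back from the steps of low values, and 98.1% of all 430293 values tested were then whole within 0.01 read.

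Lumbar minus sacral, female minus male at each level, and sex by level were fitted over all 20 libraries in R 4.3.3 using limma (version 3.58.1) together with statmod (version 1.5.0). The model had 4 group means, donor as a random block (correlation 0.17) and a trend of variance with level, and p-values were adjusted by Benjamini-Hochberg, with calls at 0.05. Genes needed a mean above -1 over at least 3 values in a group. Libraries were paired by the animal numbers in their labels, and deviations from the group means correlated at 0.18 on average (lowest 0.04) within a donor. Between different donors of a sex they correlated at -0.04. Deviations sum to 0 over the donors of a group, so this value follows from the one within donors and is no separate check. Depth sets the precision of Dlk1, Cdkn1c, Mirg and the hairpin rows.

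The members and the gene lists were chosen with earlier results of these data known. Named are all 10 members, up to 5 genes per direction of each list by size of difference, listed genes not called but above log2 RPKM 5, and the 5 genes most correlated with H19 and with Meg3. Alternatives were other filters, pseudocounts, scalings, moderation, weights, donor models, covariates and thresholds, and each donor left out. Tables were made with Python and pandas.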

Additional observations from a re-analysis of the deposited data

Results flagged for a closer look

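A total of 8 values or donor differences lay far from the rest of their group by Dixon's gap rule, among 46 groups of values examined, and chance alone puts about 1 in 20 groups beyond that limit. They were H19 in the sacral library of M2 (-4.51 log2 RPKM, the next lowest male 0.90), the lumbar minus sacral difference of M2 for H19 (7.66, next 4.32) and for Igf2 (7.49, next 3.37), Rian in the sacral library of M1 (4.40, next 3.78), Mirg and Peg3 in the lumbar library of F2 (-0.95, next 1.14, and 5.99, next 5.31), Cdkn1c in the lumbar library of F1 (-6.20, next -0.76) and the Cdkn1c difference of F1 (-4.22, next -0.44). The groups are not independent, because a donor difference reuses the values of its libraries and H19 and Igf2 correlated at 0.97. The number flagged is therefore not read against 1 in 20. In F2 the lumbar library was also the lowest of the lumbar ones for H19, Igf2, Meg3 and Rian, its endothelial marker mean was 0.34 where the other lumbar libraries had 1.66 or more, and its neuron marker mean of 7.15 was the highest of the lumbar libraries. The cause was not tested.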

How the results depend on the processing

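The direction of the 8 members called between the levels held in all 25 alternative fits, but not every call. In males alone 6 members were called, H19 (adjusted p = 0.066, limma) and Igf2 (0.13) not, and in females alone 7, Rian (0.056) not. Scaling by total reads moved Rian from 0.64 to 0.31 and Snrpn from -0.54 to -0.87, and quantile scaling moved Snrpn to -0.34. Scaling moved the median of all genes from -0.11 to -0.02 (quantile), 0.03 (TMM) and -0.43 (total reads), and the calls over all genes from 2489 lumbar and 4947 sacral to 3063 and 3432, 3713 and 3249, and 1420 and 9506. Other imprinted genes called went from 6 and 12 to 7 and 8, 7 and 9, and 2 and 19. Nap1l4 changed from -0.18 to 0.03 under quantile scaling, and IGF axis genes to 5 and 7 under total reads. Counts that moved by over 1.5 times were, with the glial covariate, 0 members, 0 other imprinted genes, 1 IGF axis gene and 192 genes in all. With the fibroblast covariate they were 5 members, 3 IGF axis genes and 3953 genes in all. Males alone gave 4588 genes in all, and females alone 3634, with 9 other imprinted and 4 IGF axis genes, from fewer samples. Sex calls over all genes, 7 in lumbar and 6 in sacral libraries, became 2 lumbar without a filter, 12 and 27 with a pseudocount of 1, 13 sacral with 0.1, 38 and 24 sacral by voom with TMM and total reads, 27 sacral with array weights, 4 lumbar without the trend or with either covariate, and 4 and 3 at a threshold of 0.01. The cause was not tested.

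Leaving out a donor gave 3 to 8 sex calls in lumbar and 3 to 9 in sacral libraries. No member was called between the sexes in any of 414 recomputed tests, the lowest adjusted p being 0.12 (limma). Leaving out a donor also gave 6602 to 7458 level calls, 8 to 9 members (9 with Cdkn1c, without F1), 16 to 18 other imprinted genes, 9 to 10 IGF axis genes, and 1.58 to 2.34 for the mean of H19 and Igf2 minus that of Meg3 and Snrpn. No fit called an interaction. Without the replicate block the pairing by donor was ignored and 8 members, 16 other imprinted and 9 IGF axis genes were called, and with the donor as a fixed replicate block 8, 17 and 9, where sex differences could not be fitted.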
